A study of Caenorhabditis elegans with 4 samples.

Results

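The genes described here are the vitellogenins vit-2, vit-5 and vit-6, which encode yolk proteins, and rme-2, which encodes the receptor that takes yolk into the oocyte. They were picked by symbol, as the vitellogenins and the yolk receptor for which the deposited table holds a probe annotated to 1 gene, and make up 4 of 14899 named genes with a value on at least 3 arrays. Each was read by 1 probe. Their sequence names are C42D8.2 for vit-2, C04F6.1 for vit-5, K07H8.6 for vit-6 and T11F8.3 for rme-2. The RNA was from wild-type Caenorhabditis elegans in L4, the larval stage that precedes the adult. Each of 4 arrays compared 1 of 4 preparations of L4 RNA, in channel 2, with wild-type mixed reference RNA, in channel 1. No sex, age in hours or composition of the reference is given in the labels.

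In C. elegans hermaphrodites, yolk is made in the intestine of the adult, secreted into the body cavity and taken up by growing oocytes. Vitellogenins are large lipid-carrying proteins related to the apolipoprotein B of vertebrates, and RME-2 belongs to the LDL receptor superfamily and sits on the oocyte surface. The source tissue (intestine) and the receiving cell (oocyte) are thus different, and the L4 germ line of hermaphrodites makes sperm before it turns to oocytes. In RNA from whole worms, fewer cells of a type and less RNA per cell cannot be told apart.

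Values are log2 ratios between the channels, centred on each array's median. Which channel stands on top of the ratio is not stated in the sources used here. A positive value is likely higher in L4, since the labels put L4 in channel 2 and describe L4 against the reference. Every "higher" and "lower" carries that limit. Values were present for 21084 to 21489 of 21632 probes per array. The SD over probes ran from 0.85 in preparation 4 to 1.21 in preparation 3. Whether the 4 preparations were grown apart is not said in the labels, so p-values measure only the spread between these samples, which may be technical. The labels give each array a date of its own, so date and preparation cannot be told apart.

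Both vit-2 and vit-5 were lower in L4 than in the reference, and their values differed widely between preparations. vit-6 and rme-2 had means below 0 that did not pass the test. Over all named genes, 9.66% were called lower and 13.4% higher at an adjusted p of 0.05, the background for these counts. The members were chosen with earlier results of these data known, so the counts are not independent evidence.

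vit-2, one of the large yolk proteins, had log2 ratios of -1.99, -0.73, -3.33 and -5.28 in preparations 1 to 4. All 4 values were below 0, with preparation 2 nearest to the reference and preparation 4 farthest from it. As deposited, before centring, they correspond to channel ratios, likely L4 over reference, of 0.244, 0.607, 0.093 and 0.025. The mean was -2.83 ± 0.62 (limma SE, n = 4), a 7.11-fold difference, with an adjusted p of 0.015 in limma and a plain SD of 1.95.

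vit-5, another yolk protein gene, followed the same order. Its log2 ratios were -2.45, -1.13, -3.84 and -5.28 in preparations 1 to 4, from deposited channel ratios of 0.177, 0.46, 0.065 and 0.025. It was below 0 on 4 of 4 arrays, again least in preparation 2 and most in preparation 4. The mean was -3.18 ± 0.58 (limma SE, n = 4), a 9.03-fold difference, with an adjusted p of 0.00705 in limma and an SD of 1.79.

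vit-6, which encodes the yolk protein that is cleaved into smaller chains after secretion, had no value in preparation 1. Its log2 ratios were 0.37, -2.08 and -5.17 in preparations 2, 3 and 4, so it lay above 0 in preparation 2 and far below it in preparation 4. The deposited channel ratios were 1.3, 0.221 and 0.027. The mean of -2.29 ± 0.88 (limma SE, n = 3) did not pass (adjusted p = 0.107 in limma), and its SD of 2.78 was larger than the size of its mean.

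rme-2, the receptor gene, had log2 ratios of -0.61, 0.92, -2.91 and -2.69 in preparations 1 to 4. It lay above 0 in preparation 2, slightly below in preparation 1, and well below in preparations 3 and 4, which lay close together. The deposited channel ratios were 0.633, 1.9, 0.124 and 0.15. The mean of -1.32 ± 0.59 (limma SE, n = 4) did not pass (adjusted p = 0.141 in limma), with an SD of 1.82.

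**Figure D1:**
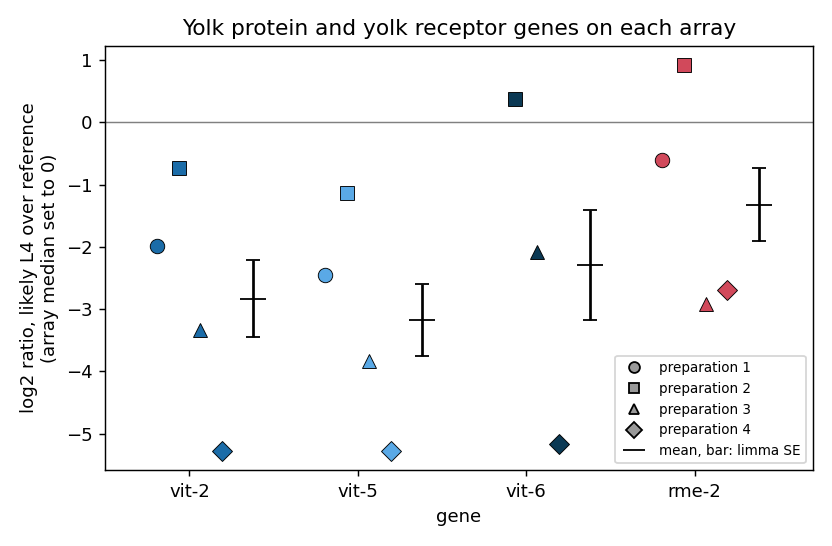
Centred log2 ratio (vertical axis, likely L4 over reference) of vit-2, vit-5, vit-6 and rme-2 (horizontal axis), 1 symbol per preparation, with the mean and limma's SE as a bar. The 3 vitellogenins sit near -5.2 in preparation 4 (-5.28, -5.28 and -5.17), while rme-2 is at -2.69 there, and preparation 2 is the highest for each gene.

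Leaving out single preparations changed the calls. Without preparation 3 the means of vit-2 and vit-5 were -2.67 and -2.95 and neither passed in limma (adjusted p = 0.0957 and 0.0622), when 4.96% of all named genes were called lower. Both passed without any other preparation, but the size moved: without preparation 4 the means were -2.01 and -2.47 (adjusted p = 0.0319 and 0.0182), and without preparation 2 they were -3.53 and -3.86 (adjusted p = 0.00791 and 0.00434). Without preparation 2, rme-2 was at -2.07 (adjusted p = 0.0224) and vit-6, then on 2 arrays, at -3.62 (adjusted p = 0.0185), and both passed, beside 6.81% of all named genes called lower. Without preparation 4, vit-6 was at -0.85 (adjusted p = 0.369) and rme-2 at -0.87 (adjusted p = 0.391). Without preparation 3, rme-2 was at -0.80 (adjusted p = 0.44). An exact sign-flip permutation test over the arrays, two-sided, gave p = 0.13 for vit-2 and for vit-5, the smallest that 4 arrays allow, p = 0.375 for rme-2 and p = 0.5 for vit-6, where 3 arrays allow no less than 0.25.

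Set among all named genes on the same array, vit-2 and vit-5 lay anywhere from the lower part of the distribution to its very end, depending on the preparation. In preparation 2, vit-2 stood at the 18.7 percentile and vit-5 at the 10.6 percentile. In preparation 1 they stood at 1.29 and 0.673, and in preparation 3 at 0.492 and 0.27. In preparation 4, vit-2 and vit-5 shared the lowest value of 14940 named genes, and vit-6 ranked 4 from the bottom. vit-6 had been at the 65.5 percentile in preparation 2. rme-2 went from the 82.1 percentile in preparation 2 to 14.7 in preparation 1, 0.85 in preparation 3 and 0.743 in preparation 4. Ratios were recorded to 3 decimals, so equal values of 0.025 for vit-2 and vit-5 in preparation 4 are equal only to that step of 0.001.

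The spread between preparations was itself among the widest on the arrays. Of 14383 named genes with a value on all 4 arrays, vit-2 ranked 81 by SD, rme-2 105 and vit-5 116, so each was within the top 0.807%. The order of the preparations, 2, 1, 3 and then 4 from highest to lowest, was shared by vit-2, vit-5 and 4.29% of those genes. rme-2 had 2, 1, 4 and then 3, an order shared by 7.66% of them.

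Compared on the same array, which removes the centring, the vitellogenins differed little from each other in preparation 4 and more elsewhere. vit-2 exceeded vit-5 by 0.46, 0.40 and 0.52 in preparations 1 to 3 and by 0.00 in preparation 4, a mean of 0.34 ± 0.23 (SD, n = 4). vit-6 lay above both on each of the 3 arrays that measured it, with vit-2 minus vit-6 at -1.10, -1.25 and -0.11 in preparations 2, 3 and 4. vit-5 minus vit-6 was -1.50, -1.77 and -0.11.

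vit-2 and vit-5 had lower ratios than the receptor gene on all 4 arrays, a design too small for the exact test to pass. vit-2 minus rme-2 was -1.38, -1.65, -0.42 and -2.58 in preparations 1 to 4, and vit-5 minus rme-2 was -1.84, -2.05, -0.93 and -2.58. All 8 differences were negative, with means of -1.51 ± 0.89 and -1.85 ± 0.69 (SD, n = 4). vit-6 minus rme-2 changed sign between arrays, at -0.55, 0.83 and -2.47 in preparations 2, 3 and 4. Over the 6 pairs no exact sign-flip permutation test passed: the 2 differences of vit-2 and vit-5 from rme-2 had p = 0.13, the smallest possible, and an adjusted p of 0.3.

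**Figure D2:**
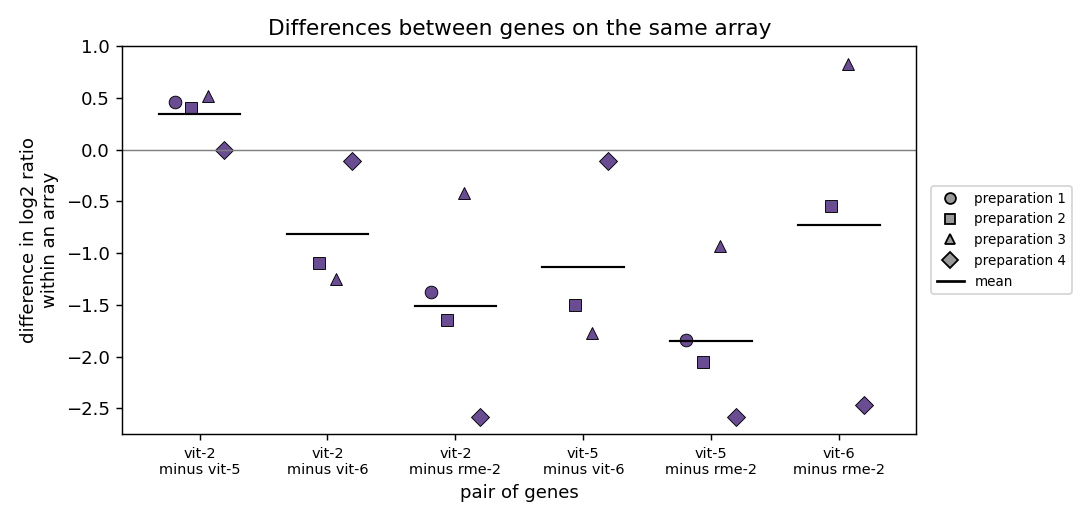
Difference in log2 ratio between 2 genes on the same array (vertical axis) for each of 6 pairs (horizontal axis), 1 symbol per preparation, with the mean as a line. vit-2 minus rme-2 and vit-5 minus rme-2 are below 0 on all 4 arrays, while vit-6 minus rme-2 runs from -2.47 to 0.83.

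A further probe, whose annotation holds both vit-1 and vit-2 and which therefore names neither, gave centred log2 ratios of -1.83, -0.589, -3.27 and -4.53 in preparations 1 to 4. Its order of preparations was that of vit-2. Averaging it into vit-2, an alternative added with the data in view, gave a mean of -2.69 and an adjusted p of 0.0146 in limma. The vitellogenin genes are close relatives in sequence, and how far a probe for one also bound RNA of another was not tested. vit-1, vit-3 and vit-4 are not analysed here as single genes.

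More intestine markers were higher than lower, while vit-2 and vit-5, which that tissue makes in the adult, were lower. Of 26 measured intestine markers, 14 were higher, 2 lower and 10 did not pass, with a median of 0.84 against 0.05 over all named genes. The share called higher was 53.8%, beside 13.4% of all named genes. The share called lower, 7.69%, was near the 9.66% of all named genes. Those higher included pgp-1, a transporter of the P-glycoprotein family, at 3.11 ± 0.25 (limma SE, n = 4), the cathepsin B-like protease gene cpr-5 at 2.76 ± 0.30 and the acid phosphatase gene pho-1 at 2.00 ± 0.23. The ferritin gene ftn-1 was lower, at -3.24 ± 0.29. The metallothionein gene mtl-1, picked with its value in view, was also lower, at -1.77.

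By preparation the intestine median was 1.03, 1.28, 0.47 and 0.97. Its order from highest to lowest, 2, 1, 4 and then 3, was that of rme-2. For vit-2 and vit-5, preparations 3 and 4 stood the other way round. vit-2 minus that median was -3.02, -2.01, -3.80 and -6.25 in preparations 1 to 4. In preparation 4 none of the 26 markers was as low as vit-2, and in preparations 1, 2 and 3, 1, 3 and 1 of them were lower. The exact permutation p of the difference for vit-2 was 0.13, the smallest for 4 arrays.

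rme-2 lay within 1 log2 unit of the median of the oocyte markers on each array, though near the top of the list in preparation 2. Of 29 measured oocyte and eggshell markers, 0 were higher and 11 lower, with a median of -1.26. The share called lower was 37.9%, beside 9.66% of all named genes. The median by preparation was -0.90, -0.01, -2.52 and -2.16. rme-2 minus that median was 0.29, 0.93, -0.39 and -0.54, a mean of 0.07 ± 0.68 (SD, n = 4) with an exact permutation p of 1. It lay above 20, 27, 10 and 12 of the 29 markers in preparations 1 to 4. On each array the vitellogenins were also nearer to the oocyte median than to the intestine median. The oocyte median was the lower of these medians on each array, so any gene below both is nearer to it. Of the 29 oocyte markers, only 0, 1, 4 and 0 were lower than vit-2 in preparations 1 to 4. vit-2 minus the oocyte median was -1.09, -0.72, -0.81 and -3.12 in preparations 1 to 4, vit-5 minus it was -1.55, -1.12, -1.33 and -3.12, and vit-6 minus it was 0.38, 0.44 and -3.01 in preparations 2, 3 and 4.

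Among the oocyte markers, the lowest means that passed belonged to perm-2, a gene of the eggshell's permeability barrier, at -2.55 ± 0.51 (limma SE, n = 4), and to pos-1 and oma-2, which encode zinc finger proteins of the oocyte and early embryo, at -2.42 ± 0.54 and -2.26 ± 0.51. The eggshell gene cpg-3 was at -2.14 ± 0.48. None of these 4 passed without preparation 3 (adjusted p = 0.0761, 0.0935, 0.0856 and 0.0862 in limma), when 0 of the 29 markers did, by limma. At an unadjusted p under 0.05 that count was 10, and the share of all named genes at that threshold is not given here. Without preparation 4, 2 passed, or 6.90% of the 29 beside 7.66% of all named genes called lower, and perm-2 was the only one of these 4 to do so (adjusted p = 0.0287), the others being at 0.065, 0.0697 and 0.0661. Without preparation 2, 21 passed, beside 6.81% of all named genes.

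**Figure D3:**
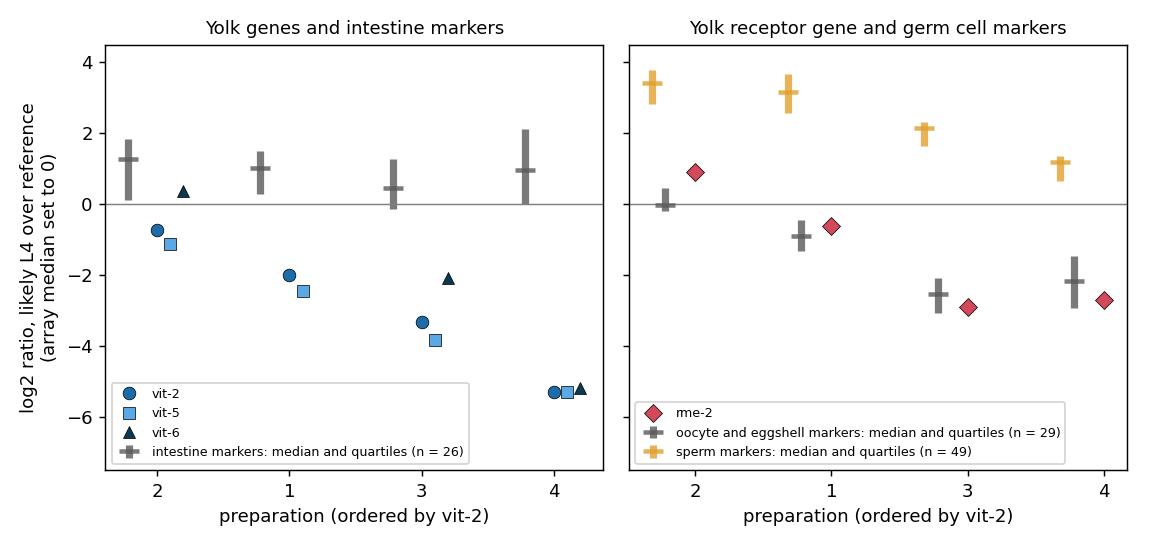
Centred log2 ratio (vertical axis, likely L4 over reference) in each preparation (horizontal axis, ordered by vit-2). Left: vit-2, vit-5 and vit-6 beside the median and quartiles of 26 intestine markers. Right: rme-2 beside 29 oocyte and eggshell markers and 49 sperm markers. The intestine median stays between 0.47 and 1.28 while vit-2 goes from -0.73 to -5.28, and rme-2 stays within 1 log2 unit of the oocyte median.

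Markers of other cells and of stage also moved between the preparations. Of 49 measured sperm markers, 47 were higher (95.9%, beside 13.4% of all named genes). Among them were ssp-16 (3 arrays) at 3.17, sss-2 at 3.03 and the major sperm protein genes msp-77 and msp-36 at 2.94 and 2.89. The 2 that did not pass were msp-38 at -0.40 and spe-38 at 0.35, both picked with their values in view. Many of the 49 are major sperm protein genes, and how far a probe for one also bound RNA of another was not tested. The sperm median was 3.16, 3.42, 2.15 and 1.19 in preparations 1 to 4, the same order of preparations as for vit-2. Of 7 adult cuticle markers, 5 were higher (71.4%, beside 13.4% of all named genes). Among them were bli-2 at 4.40, col-63 at 4.16, bli-1 at 3.37 and col-62 at 3.35. The cuticle median was 4.09, 3.09, 4.71 and 1.70 in preparations 1 to 4. The adult collagen gene col-62 was at 4.09, 4.36, 4.82 and 0.12, with the lowest value in preparation 4, and it did not pass without preparation 3 (adjusted p = 0.0845 in limma). col-19, another adult collagen gene picked with its values in view, was at 2.47, 2.27, 1.08 and -2.65 and did not pass (adjusted p = 0.471). col-7, likewise picked with its values in view, was at 4.38, 4.2, 4.74 and -0.16, again lowest in preparation 4. The rest of the list was not lowest in that preparation. bli-2 was at 4.22, 2.78, 5.13 and 5.45, and col-63 at 4.24, 3.40, 4.71 and 4.30. bli-1 was at 3.08, 3.09, 3.80 and 3.53. rol-6, also picked with its values in view, was highest in preparation 4, at 1.09, -0.93, 0.26 and 1.70. The part of stage or of germ cell content in the yolk values was not tested.

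Of 17 regulators of vitellogenin transcription, 1 passed as higher (5.88%) and 2 as lower (11.8%), and 14 missed the threshold. The shares over all named genes were 13.4% and 9.66%, so the share called lower was near the background. The list median was -0.02. mab-10, which encodes a cofactor of the LIN-29 transcription factor at the larval-to-adult switch, was higher at 0.85 ± 0.24 (limma SE, n = 4). The insulin pathway kinase genes akt-2 and akt-1 were lower at -0.99 ± 0.24 and -0.92 ± 0.25. Among other transcription factor genes of the list, elt-2, a GATA factor gene of the intestine, was at 0.23 (adjusted p = 0.502 in limma). The homeodomain factor unc-62 was at -0.30 (adjusted p = 0.322), and its partner ceh-60 at 0.32 (adjusted p = 0.312). The zinc finger gene lin-29 was at 0.48 (adjusted p = 0.193) and pqm-1 at -0.70 (adjusted p = 0.0754). These 5 were named for their roles, with their values in view.

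The 3 calls among regulators did not hold under every alternative. With arrays centred on housekeeping genes 0 of 17 passed, and 0 did without preparation 1 or 3, by limma. The share of all named genes called in either direction also fell. It was 23.1% in the main fit, 13.5% with housekeeping centring, 15.3% without preparation 1 and 12.8% without preparation 3. mab-10 did not pass without any 1 preparation (adjusted p = 0.0845, 0.0761, 0.0814 and 0.114 without preparations 1 to 4). Leaving out preparation 1, 2 or 3 ended the call of akt-2 (adjusted p = 0.0872, 0.0702 and 0.0816), and leaving out preparation 1 or 3 that of akt-1 (adjusted p = 0.147 and 0.103). At an unadjusted p under 0.05, 5 of the 17 were counted with housekeeping centring, 3 without preparation 1 and 3 without preparation 3. The share of all named genes at that unadjusted threshold is not given here, so these counts have no background.

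Genes that load lipid onto yolk particles and supply its fat were found among both the higher and the lower calls. Of 23 genes, 4 passed as higher (17.4%) and 5 as lower (21.7%), and 14 missed the threshold, with a median of -0.08. The shares over all named genes were 13.4% and 9.66%, so the share called higher was near the background. dsc-4, which encodes the large subunit of the microsomal triglyceride transfer protein that assembles lipoproteins in the intestine, was higher. Its log2 ratios were 1.92, 2.48, 2.33 and 2.72 in preparations 1 to 4, a mean of 2.36 ± 0.22 (limma SE, n = 4) and a 5.15-fold difference (adjusted p = 0.000665). All 4 arrays were above 0, and the SD between them was 0.34.

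The intracellular lipid-binding protein genes lbp-7, lbp-6 and lbp-8 were also higher, at 2.97 ± 0.26, 1.43 ± 0.23 and 1.30 ± 0.23 (limma SE, n = 4). Fatty acid desaturase genes made up 4 of the 5 called lower. fat-3 was lowest, at -2.96, -3.45, -4.47 and -2.75 in preparations 1 to 4, with a mean of -3.41 ± 0.31. fat-2, fat-4 and fat-6 were at -1.49 ± 0.25, -1.47 ± 0.27 and -1.35 ± 0.26. The fifth was lbp-1, picked with its value in view, with a mean of -0.94. Other members of both families, also picked with their values in view, did not pass. fat-5 was at -1.17 (adjusted p = 0.0776 in limma) and fat-7 at -0.75 (adjusted p = 0.111). lbp-2, lbp-3, lbp-4 and lbp-5 had means of -0.08, 0.14, -0.27 and 0.01. dsc-4, the 3 lbp genes called higher and the 4 desaturase genes called lower passed with each preparation left out in turn and with housekeeping centring.

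Of 24 genes for uptake and endosomal traffic, 0 passed as higher and 2 as lower (8.33%, near the 9.66% over all named genes), and 22 missed the threshold. The list median was -0.21. The caveolin gene cav-1 was lower, at -4.34, -4.53, -5.09 and -3.90 in preparations 1 to 4, a mean of -4.46 ± 0.25 (limma SE, n = 4). rme-4, which encodes a regulator of a Rab GTPase in yolk receptor recycling, was lower at -0.72 ± 0.21 (adjusted p = 0.0457), but it did not pass without any 1 preparation (adjusted p from 0.0625 to 0.184) or with housekeeping centring (0.201). The clathrin heavy chain gene chc-1, named for its role with its value in view, was the highest of the 24 at 0.55 (adjusted p = 0.128).

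**Figure D4:**
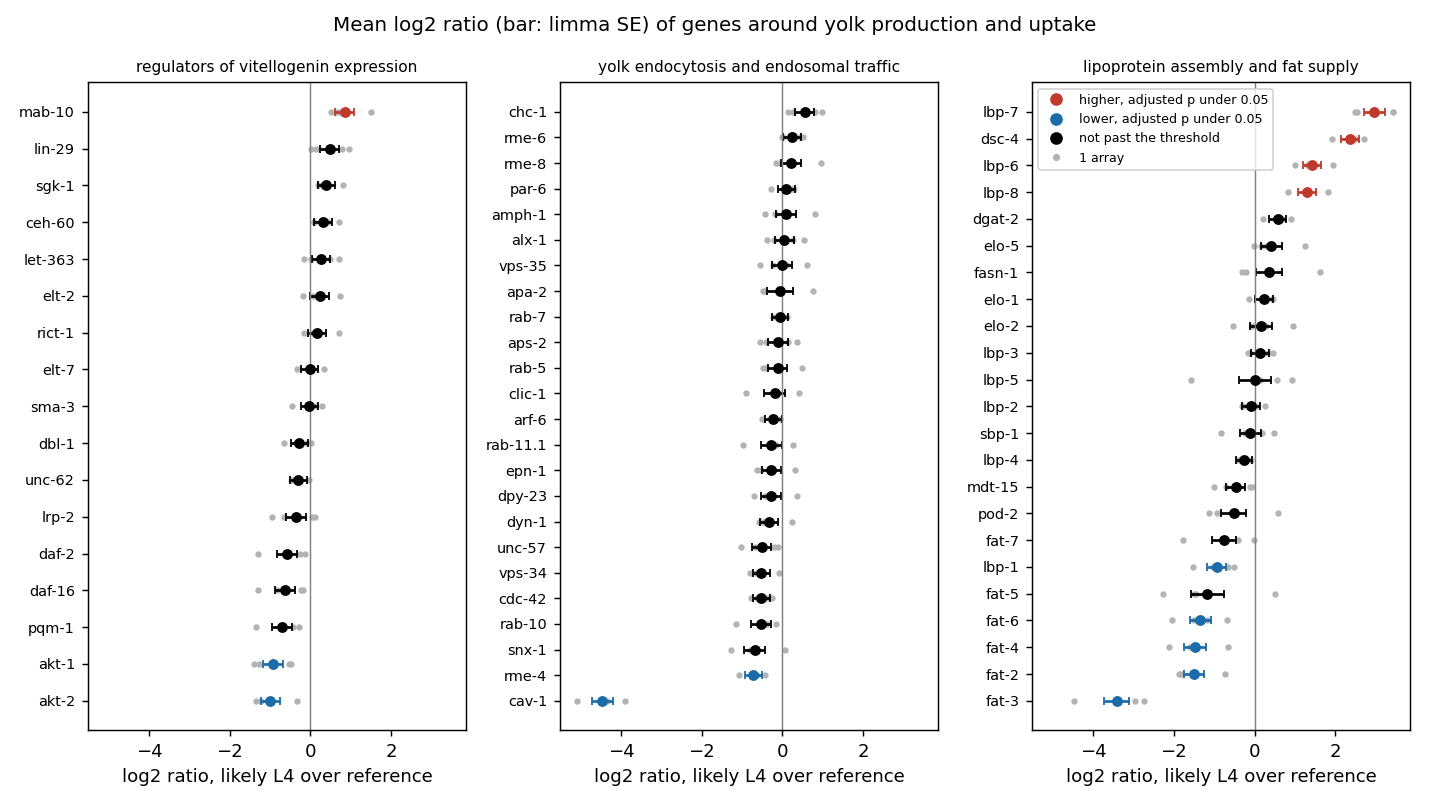
Mean log2 ratio with limma's SE as a bar (horizontal axis, likely L4 over reference) of 17 regulators, 24 endocytosis genes and 23 lipoprotein and fat genes (vertical axis), with small grey points for single arrays and colour for genes past an adjusted p of 0.05. cav-1 at -4.46, fat-3 at -3.41, lbp-7 at 2.97 and dsc-4 at 2.36 lie far from 0, and most other genes lie within 1 log2 unit of it.

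Other genes of the LDL receptor superfamily behaved unequally. egg-1 and egg-2, which encode proteins of the egg surface needed for sperm entry, were lower at -1.71 ± 0.48 and -1.85 ± 0.44 (limma SE, n = 4). egg-2 was at -1.44, -0.19, -2.96 and -2.80 in preparations 1 to 4, with preparations 3 and 4 lowest, as for rme-2. Neither passed without preparation 3 (adjusted p = 0.167 and 0.109), without preparation 4 (0.13 and 0.0816) or with housekeeping centring (0.0858 and 0.0515). lrp-1 and lrp-2, picked with their values in view, had means of -0.12 and -0.36 and did not pass.

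The named genes with log2 ratios most like those of each gene were found by the root mean square difference over the arrays, among 14380 genes with all 4 values. For vit-5 the nearest were D1054.10 at a difference of 0.28, ule-3, a gene expressed in the uterine lumen, at 0.34, stha-3 at 0.44, ule-5 at 0.61 and ZK813.3 at 0.63. For vit-2 they were D1054.10 at 0.31, ule-5 at 0.47, perm-2 at 0.49, ule-3 at 0.50 and stha-3 at 0.55. vit-2 and vit-5 differed from each other by 0.40, so D1054.10 was nearer to each than they were to one another. D1054.10 was at -2.02, -1.28, -3.54 and -5.12 in preparations 1 to 4, a mean of -2.99 ± 0.55 (limma SE, n = 4). Of these, ZK813.3 at -3.37 passed with any preparation left out. D1054.10, ule-3 and stha-3 did not pass without preparation 3 (adjusted p = 0.0639, 0.0626 and 0.0702), and ule-5 lost its call when preparation 3 or 4 was left out (adjusted p = 0.109 and 0.0578).

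vit-6 had no comparably close neighbour over its 3 arrays, where 14588 genes could be compared. Y62H9A.4 was nearest at 0.64, followed by perm-2 at 1.08, F14H3.6 at 1.09, F55B11.2 at 1.10 and the eggshell gene cpg-1 at 1.13. vit-2 itself was at 0.96 from vit-6. To the mean of the measured vitellogenins the nearest genes were D1054.10, perm-2, ule-5, ule-3 and stha-3, at 0.47 to 0.72.

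For rme-2 the nearest genes were different ones: C01G8.1 at 0.28, gfat-2, an enzyme gene of the hexosamine pathway, at 0.30, era-1 at 0.31, mesp-1, a gene of the meiotic spindle, at 0.34 and T24D1.3 at 0.35. era-1 was at -0.83, 0.37, -2.93 and -2.56 in preparations 1 to 4. None of the 5 passed in limma with all arrays (adjusted p from 0.071 to 0.127), and each passed without preparation 2 (adjusted p from 0.0156 to 0.033), as rme-2 did. These 5 were picked because their values lie nearest to those of rme-2, so the shared outcome follows from the pick and is no separate evidence. vit-2 and vit-5 were at 1.69 and 1.94 from rme-2.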

How the data were processed

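The authors' unit for the deposited table, which has 21632 probes and 4 arrays, is not stated. The deposited values behave as log2 ratios that the authors formed between the channels, by steps not stated in the labels: taken as powers of 2, they gave whole multiples of 0.001 for 100% of values below 0 and at least 99.9% of those above 0 on each array (tolerance 0.02 grid steps), against at most 5.9% when read as natural or base-10 logarithms. Of the dyes, background correction and normalization nothing is stated in the labels. Scanner intensities, and so signal over background, are not analysed here.

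Each array was centred on its median. The platform annotation gave exactly 1 gene for 16450 probes, and 16368 of these matched a gene table of assembly WBcel235, used for names only. Probes of a gene were averaged. A gene or unnamed probe needed a value on at least 3 of 4 arrays, which left 19909. In limma 3.58.1 under R 4.3.3, lmFit and eBayes (5.15 prior degrees of freedom) tested each mean against 0, two-sided, with p-values adjusted by Benjamini-Hochberg over all 19909, at a threshold of 0.05. The reference counts as 1 sample, so its own spread is left out. In all 4317 passed (21.7%), 2372 higher and 1945 lower. The moderated SE of genes as variable as vit-2 is below what their plain SD implies. The calculation was tested on simulated data. Exact tests and figures used Python 3.11.15 with pandas 2.3.3 and matplotlib 3.10.9.

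The genes, the marker and pathway lists and the tests were chosen with earlier results of these data known. From each list the text names up to 4 genes past the threshold with the largest absolute mean (up to 8 for the regulators, uptake genes and lipoprotein genes), and for vit-2, vit-5, vit-6 and rme-2 the 5 nearest genes. Genes named outside this rule are marked. The genes egg-1, egg-2, lrp-2, elt-2, elt-7 and lbp-6 stand in more than 1 list, and cdc-42 is both an uptake gene and a housekeeping gene.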

Additional observations from a re-analysis of the deposited data

How the results depend on the processing

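vit-2 and vit-5 stayed below 0 under every alternative run and passed under all of them except without preparation 3 (-2.67, adjusted p = 0.0957, and -2.95, adjusted p = 0.0622, in limma). Over the alternatives, the adjusted p ran from 0.00791 to 0.0957 for vit-2 and from 0.00425 to 0.0622 for vit-5. With 1 preparation left out, the means ran from -3.53 to -2.01 for vit-2, from -3.86 to -2.47 for vit-5, from -3.62 to -0.85 for vit-6 (then on 2 or 3 arrays) and from -2.07 to -0.80 for rme-2. vit-6 and rme-2 passed only without preparation 2, with an adjusted p of 0.0185 and 0.0224. Centring on 15 housekeeping genes, values as deposited, arrays scaled to equal spread, robust shrinkage and every probe on its own changed no call of the 4 genes, and a value on all 4 arrays changed none of the 3 it keeps, vit-6 being left out. vit-6 minus rme-2 turned from -0.73 to 0.14 without preparation 4, with a range of -1.51 to 0.14, and the cause was not tested. The other 5 pairs kept their sign.

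With housekeeping centring 2445 genes and probes passed, 1459 higher and 986 lower. Of 17 regulators 0 passed, of 24 uptake genes 1 and of 29 oocyte markers 6. The uptake gene and the oocyte markers were lower, 4.17% and 20.7% of their lists, beside 5.11% of all named genes. With 1 preparation left out, 2337 to 3632 passed, 1359 to 2152 higher and 978 to 1480 lower, the fewest without preparation 3. The same range was 0 to 2 for the 17 regulators, 1 to 2 for the 24 uptake genes and 0 to 21 for the 29 oocyte markers. The share of all named genes called in either direction ran from 12.8% to 19.7%. Lipoprotein and fat genes (8 to 9) and intestine markers (13 to 15) moved little. Fits without 1 array have fewer residual degrees of freedom. No paired analysis was possible because the 4 samples form 1 group. The number of arrays limits the precision, and signal over background is not known here.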
